A study of Homo sapiens with 6 samples.

Results

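Of the 34308 regions made by joining the overlapping peaks of 3 lists of active regulatory elements in K562 cells, 2108 held a peak of the published precision run-on protocol alone. That protocol is called PRO-seq 1M here. Peaks were joined wherever they shared at least 1 bp on chromosomes 1 to 22 and X, and regions with peaks from the PRO-seq 1M list only were kept. As peaks of a list never overlapped each other, each of these regions was a single peak. They made up 8.53% of the 24707 PRO-seq 1M peaks. A limit of 500 bp divided them into 1165 isolated regions, with no peak of another list within that distance (4.72% of the list), and 943 adjacent regions, with such a peak close by. The other 22599 PRO-seq 1M peaks, which lay in a region with a peak of another list, are called shared. With an overlap of at least 50% of both peaks asked of a counterpart, 4353 regions were of PRO-seq 1M alone.

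PRO-seq, precision run-on sequencing, locates RNA polymerases in the act of transcription. Permeabilized cells add a biotin-labelled nucleotide to their nascent RNA, which is captured on streptavidin beads and sequenced. K562 is an established human leukaemia line, grown here in RPMI with serum and left untreated. The PRO-seq 1M libraries came from 1M permeabilized cells each, with biotin-labelled C and U, 3 affinity purifications and 11 cycles of PCR. The qPRO-seq 1M libraries used a quick protocol on the same input, with other streptavidin beads, 1 purification, the first adapter ligated ahead of it, and 11 cycles. The qPRO-seq 250k libraries used the quick protocol on 250k cells, with 1 purification and 14 cycles. All 6 libraries carried molecular identifiers of 6 nt, and the 2 replicates of a group were at least 3 passages apart.

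Active promoters and enhancers both start transcription, usually in opposite directions from neighbouring sites, and polymerases pause shortly after the start. The program dREG recognises this pattern in run-on reads and reports peaks with a score. Many human promoters lie in CpG islands, stretches rich in G and C, and carry GC boxes, short motifs bound by SP1 and related factors.

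Promoter sequences are shown first, because promoter windows at isolated regions differed in GC content from those at isolated peaks of qPRO-seq 1M alone. Each is the RefSeq window on build GRCh38.p14 from 250 bp before to 50 bp after a transcript start, 5′ to 3′ on the strand of the gene. Capitals mark the GC box GGGCGG or its reverse complement CCGCCC. The first 4 belong to the highest-scored isolated regions that overlapped a RefSeq window of their own gene. PACS1 lies at chr11:66070022-66070321 on the plus strand, PKIG at chr20:44531625-44531924 on the plus strand, ARRB2 at chr17:4710382-4710681 on the plus strand and GPRIN1 at chr5:176610107-176610406 on the minus strand.
PACS1: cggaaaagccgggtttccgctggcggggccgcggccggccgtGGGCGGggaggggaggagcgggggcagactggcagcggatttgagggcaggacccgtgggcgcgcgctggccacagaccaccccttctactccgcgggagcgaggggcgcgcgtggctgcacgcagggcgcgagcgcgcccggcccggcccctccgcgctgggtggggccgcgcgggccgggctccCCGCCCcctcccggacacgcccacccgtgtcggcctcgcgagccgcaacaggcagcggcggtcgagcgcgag
PKIG: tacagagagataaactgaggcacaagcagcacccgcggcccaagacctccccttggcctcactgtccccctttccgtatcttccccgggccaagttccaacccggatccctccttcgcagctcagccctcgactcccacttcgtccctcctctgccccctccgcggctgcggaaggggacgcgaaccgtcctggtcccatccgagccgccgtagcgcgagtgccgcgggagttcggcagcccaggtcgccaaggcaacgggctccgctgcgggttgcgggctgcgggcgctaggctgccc
ARRB2: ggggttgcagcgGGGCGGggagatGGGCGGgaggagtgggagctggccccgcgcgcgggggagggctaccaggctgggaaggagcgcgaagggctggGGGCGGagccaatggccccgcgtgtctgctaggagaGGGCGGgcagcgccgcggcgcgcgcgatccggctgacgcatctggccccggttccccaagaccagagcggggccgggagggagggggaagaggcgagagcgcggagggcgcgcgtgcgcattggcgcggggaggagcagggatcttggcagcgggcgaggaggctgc
GPRIN1: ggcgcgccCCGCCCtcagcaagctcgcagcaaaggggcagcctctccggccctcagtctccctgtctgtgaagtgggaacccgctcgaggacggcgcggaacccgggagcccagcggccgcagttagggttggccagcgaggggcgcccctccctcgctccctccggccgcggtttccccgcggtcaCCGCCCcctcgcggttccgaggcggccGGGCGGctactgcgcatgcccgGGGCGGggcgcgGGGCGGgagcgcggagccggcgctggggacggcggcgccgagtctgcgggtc
The GC content of these windows was 80% for PACS1, 68.7% for PKIG, 76.3% for ARRB2 and 78.0% for GPRIN1. They held 2, 0, 4 and 5 GC boxes in that order.

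Adjacent regions of E2F8, LINGO1 and GPR85, described below, scored higher than that of GLG1 but are not shown as sequence. The next window is that of GLG1, chosen by score among adjacent regions with a RefSeq window, at chr16:74607065-74607364 on the minus strand.
GLG1: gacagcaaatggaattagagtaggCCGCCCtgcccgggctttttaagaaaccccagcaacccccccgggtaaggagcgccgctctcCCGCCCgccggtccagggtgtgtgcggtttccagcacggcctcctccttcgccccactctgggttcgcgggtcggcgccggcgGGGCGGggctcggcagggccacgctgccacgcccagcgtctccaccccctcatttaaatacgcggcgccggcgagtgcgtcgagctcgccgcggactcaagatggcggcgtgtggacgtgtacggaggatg
Its GC content was 69.0%, with 3 GC boxes. Its peak scored 0.774 and lay 350 bp from the nearest peak of another list.

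For contrast, the last 3 windows lie under the highest-scored isolated peaks of qPRO-seq 1M alone, chosen in the same way. HMGN5 lies at chrX:81201864-81202163 on the minus strand, ZFAND6 at chr15:80072312-80072611 on the plus strand and TAF9B at chrX:78139601-78139900 on the minus strand.
HMGN5: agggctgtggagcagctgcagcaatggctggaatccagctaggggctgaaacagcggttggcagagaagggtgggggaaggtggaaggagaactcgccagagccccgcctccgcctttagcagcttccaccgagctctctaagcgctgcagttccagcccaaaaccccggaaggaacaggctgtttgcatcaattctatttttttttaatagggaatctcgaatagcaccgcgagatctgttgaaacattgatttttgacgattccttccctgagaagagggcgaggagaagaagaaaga
ZFAND6: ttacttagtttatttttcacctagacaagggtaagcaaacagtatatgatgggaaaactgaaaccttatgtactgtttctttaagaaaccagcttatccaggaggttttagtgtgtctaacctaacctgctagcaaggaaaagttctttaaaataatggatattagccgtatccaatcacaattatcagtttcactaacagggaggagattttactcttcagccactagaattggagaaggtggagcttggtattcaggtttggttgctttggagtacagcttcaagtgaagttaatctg
TAF9B: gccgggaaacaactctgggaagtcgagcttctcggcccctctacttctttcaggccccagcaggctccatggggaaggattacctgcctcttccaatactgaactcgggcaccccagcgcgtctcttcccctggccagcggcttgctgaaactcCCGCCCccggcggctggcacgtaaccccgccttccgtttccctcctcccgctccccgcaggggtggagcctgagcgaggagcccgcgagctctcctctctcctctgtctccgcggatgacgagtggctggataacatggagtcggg
These windows had 52.7%, 37.3% and 65% GC, and 0, 0 and 1 GC boxes. All 3 had less GC than the 4 isolated PRO-seq 1M windows above.

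The lists differed in length on the chromosomes used, with 24707 peaks in PRO-seq 1M, 38177 in qPRO-seq 1M and 15562 in qPRO-seq 250k. In qPRO-seq 1M, 33.3% of peaks had no overlapping peak of another list and 24.6% were isolated. In qPRO-seq 250k these shares were 2.29% and 1.46%. The lists hold no read counts, so the depth behind them is unknown, and protocol, depth and library cannot be told apart as sources of a difference. Each group had 1 list for its 2 replicates, so no spread between replicates could be measured and no test between groups was made. Values in parentheses after a share or median are 95% intervals that cover only counting error, and peaks side by side are not independent of each other. The labels call K562 lymphoblastoid. Of 10 erythroid and K562 marker genes, 9 had a start peak in PRO-seq 1M, 10 in qPRO-seq 1M and 9 in qPRO-seq 250k. In the same order, 2, 2 and 1 of 5 B-lymphoid markers, 2, 2 and 1 of 4 myeloid markers and none of 4 T-lymphoid markers had a start peak. The B-lymphoid factor gene EBF1 had an isolated region (score 0.419) beside a shared start peak.

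The regions of PRO-seq 1M alone were low-scored peaks. These scores come from the same calls as the rule that chose the regions, so they only describe it. The median score was 0.392 in isolated, 0.395 in adjacent and 0.650 in shared peaks. Scores ran from 0.267 to 0.883 in isolated regions and from 0.282 to 0.875 in adjacent regions, and none of the regions exceeded 1.0, against 13.8% of shared peaks. Of the isolated regions, 94.0% scored below the median of the list, and 33.3% lay in its lowest decile. The corresponding shares were 95.2% and 31.9% for adjacent regions and 45.8% and 7.89% for shared peaks. The median width was 330 bp, 340 bp and 470 bp in isolated, adjacent and shared peaks. The deposited p-value was over 0.01 for 38.8% of isolated, 40.9% of adjacent and 11.8% of shared peaks. It was listed as 0 for 24.4% of isolated, 23.2% of adjacent and 19.2% of shared peaks. In the band of scores from 0.35 to 0.4, where such values were common, 48.6% of the regions of PRO-seq 1M alone and 49.6% of shared peaks had a p of 0.

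**Figure D1:**
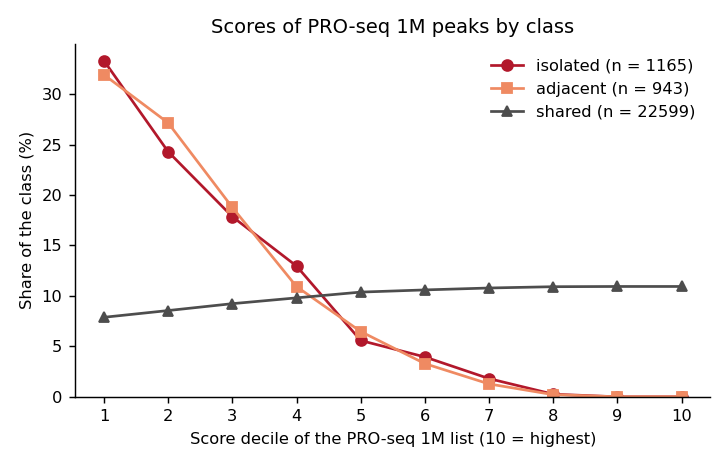
Share of isolated, adjacent and shared PRO-seq 1M peaks (vertical axis, percent of the class) in each score decile of the list (horizontal axis, 1 is the lowest). Isolated and adjacent peaks follow nearly the same line down from 33.3% and 31.9% in the lowest decile, while shared peaks rise slowly from 7.89%.

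The distance to the nearest peak of another list ranged from 0 bp to 1751550 bp. A group of 61 regions touched such a peak without sharing a base, and 162 lay within 20 bp. At the other end, 585 isolated regions (50.2%, 47.3 to 53.1) were over 10 kb away, 204 were over 50 kb away and 99 were over 100 kb away. The median distance was 10120 bp for isolated regions, with quartiles of 2160 bp and 31710 bp, and 120 bp for adjacent regions. Few regions lay near the limit of 500 bp. The last 20 bp before it held 19, and the first 30 bp beyond it held 10. Just inside it were adjacent regions at the start of GET4 and in an intron of ZNF777, both 500 bp from a qPRO-seq 1M peak. Just outside were isolated regions near the start of LPCAT4 and between genes on chromosome 9 (88932791 to 88933070), both at 510 bp.

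**Figure D2:**
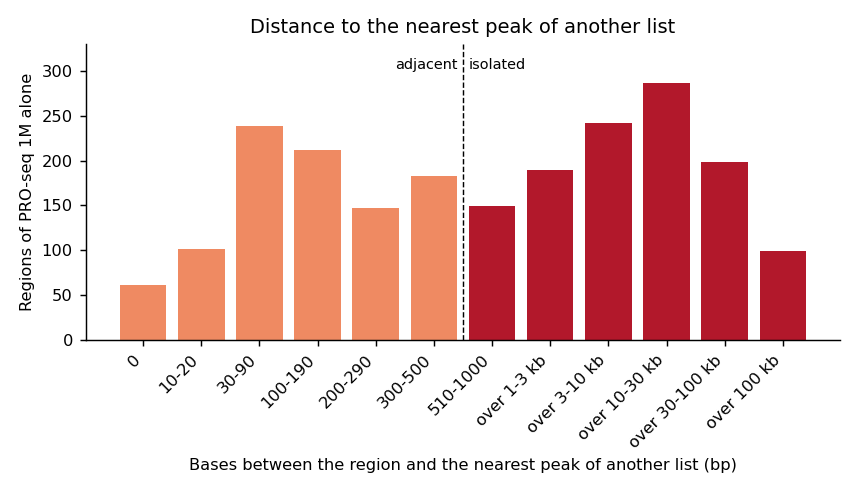
Number of regions of PRO-seq 1M alone (vertical axis) by the number of bases to the nearest peak of another list (horizontal axis, classes of unequal width in bp). The dashed line is the limit of 500 bp, with adjacent regions to the left, where 61 touch another list's peak, and isolated regions to the right, where 99 lie over 100 kb away.

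Isolated and adjacent regions lay in different places. A peak was taken as start-near when an annotated transcript start (GENCODE release 29) lay within 500 bp of it, and other peaks were divided into exonic, intronic and intergenic. Of the isolated regions, 493 were start-near (42.3%, 39.5 to 45.2), 311 intronic (26.7%), 288 intergenic (24.7%) and 73 exonic (6.27%). Of the adjacent regions, 651 were start-near (69.0%, 66.0 to 71.9), 133 intronic (14.1%), 120 intergenic (12.7%) and 39 exonic (4.14%). Shared peaks were start-near in 69.4% of cases (68.8 to 69.97).

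The start-near share of isolated regions was 27.1 percentage points below that of shared peaks (difference -27.1, -29.9 to -24.1). The rule bears on this difference, as it sets apart the adjacent regions, of which 69.0% were start-near. With isolation over 100 bp the isolated share was 48.5% and the difference -20.9 points. Among shared peaks the start-near share was lower at low scores. In the lowest score decile the share was 36.1% (31.5 to 41.0) of isolated and 49.6% (47.3 to 52.0) of shared peaks, and in the fifth it was 58.5% (46.3 to 69.6) and 62.5% (60.5 to 64.4). Averaged within score deciles the difference was -12.2 points. Adjacent regions differed from shared peaks by -0.34 points, with an interval of -3.42 to 2.59 that includes 0. At like scores they were start-near more often, with 62.8% (57.2 to 68.1) against 49.6% in the lowest decile, and the difference averaged within score deciles was 14.8 points. Other settings gave values from -9.34 points (peaks joined up to 100 bp apart) to 7.67 (isolation over 100 bp), so that the sign without matching on score depended on the setting. The rule favours start-near adjacent regions, as it asks for a peak of another list within 500 bp. Of shared peaks, which overlap a peak of another list, 69.4% were start-near. Isolated peaks of qPRO-seq 1M alone were start-near in 16.4% (15.7 to 17.2) of 9401 cases, which placed isolated PRO-seq 1M regions 25.9 points higher (22.98 to 28.8). Against the 227 isolated peaks of qPRO-seq 250k alone, of which 29.5% (24.0 to 35.8) were start-near, they stood 12.8 points higher (5.96 to 19.05).

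**Figure D3:**
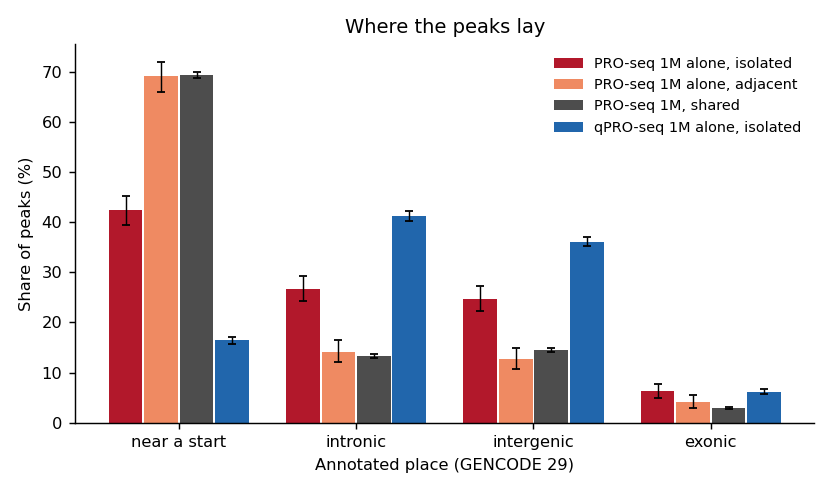
Share of peaks (vertical axis, percent, bars from 0, error bars are Wilson 95% intervals) by annotated place, for isolated and adjacent regions of PRO-seq 1M alone, shared PRO-seq 1M peaks and isolated peaks of qPRO-seq 1M alone. Near a start the isolated PRO-seq 1M share of 42.3% stands between 16.4% for qPRO-seq 1M alone and 69.4% for shared peaks.

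Most isolated start-near regions covered an annotated start, as did most shared start-near peaks. Of the 493, 437 (88.6%) were near a protein-coding start, 38 (7.71%) near a start of a long non-coding gene and of no protein-coding gene, and 18 near other starts only. An annotated start lay inside the peak in 75.5% (71.5 to 79.0) of isolated, 74.97% (74.3 to 75.6) of shared and 37.9% (34.3 to 41.7) of adjacent start-near peaks. Starts on both strands were near 15.8% (12.9 to 19.3) of isolated regions, 18.4% (15.6 to 21.6) of adjacent regions and 28.2% (27.5 to 28.9) of shared peaks. The centre lay a median of 27 bp upstream of the nearest protein-coding start in isolated regions (position -27, -36 to -19) and at -19 in shared peaks (-21 to -18). Within 150 bp of the start were 72.1% (67.7 to 76.1) of isolated and 68.3% (67.5 to 69.0) of shared centres. Of the 437 isolated centres, 33 lay over 300 bp upstream and 35 over 300 bp downstream.

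Adjacent regions were shifted into the gene. Their centres lay at a median of 111 bp downstream of the start (36 to 152, n = 607), and 58.8% (54.9 to 62.7) were downstream, against 29.98% (25.9 to 34.4) of isolated and 35.5% (34.7 to 36.3) of shared centres. Within 150 bp of the start were 35.7% (32.0 to 39.6). Adjacent peaks of qPRO-seq 1M alone, set apart by the same limit, had a median of 181 bp downstream (134 to 223, n = 1577), 60.7% (58.3 to 63.1) downstream and 23.02% (21.0 to 25.2) within 150 bp. Most adjacent regions had a shared PRO-seq 1M peak beside them, with 749 of 943 (79.4%, 76.7 to 81.9) within 500 bp of such a peak. Exactly 20 bp from it, the smallest spacing in the list, were 375 (39.8%). The rule favours such neighbours, as it asks for a peak of another list within 500 bp. As peaks of a list never overlapped, an adjacent region could not cover the same bases as its shared neighbour. Among 521 adjacent regions near a protein-coding start with a shared peak within 500 bp, 364 (69.9%, 65.8 to 73.6) lay downstream of that neighbour. The centre was farther from the start than that of the shared neighbour in 254 of the 521 (48.8%, 44.5 to 53.0). The median position was 143 bp downstream of the start for the adjacent region (89 to 197) and 98 bp upstream for its shared neighbour (-98, -126 to -74). The nearest peak of another list belonged to a region that already held a PRO-seq 1M peak for 737 adjacent regions (78.2%), and to a region of qPRO-seq 1M alone for 186 (19.7%). A qPRO-seq 1M peak lay within 500 bp of 924, a qPRO-seq 250k peak within 500 bp of 570, and a qPRO-seq 250k peak only within 500 bp of 19.

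**Figure D4:**
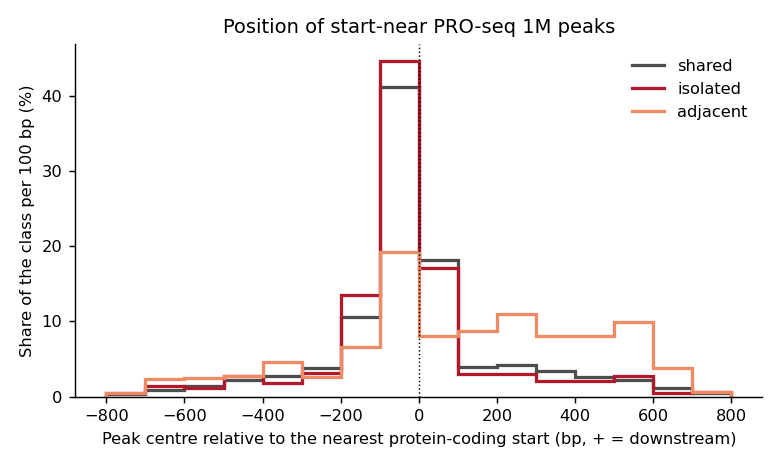
Position of peak centres relative to the nearest protein-coding start (horizontal axis, bp, positive is downstream) for start-near PRO-seq 1M peaks, as percent of each class per 100 bp (vertical axis). Isolated (n = 437) and shared (n = 14299) peaks pile up just upstream of the start, while 58.8% of the 607 adjacent centres lie downstream of it.

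Most isolated regions had no other peak of their own list within 500 bp. In part this follows from the rule, because a shared peak overlaps a peak of another list, and isolated regions have none of those within 500 bp. Another PRO-seq 1M peak lay within 500 bp of 106 of them (9.10%), and this was another region of PRO-seq 1M alone in 96 cases and a shared peak in 12. Runs of regions of PRO-seq 1M alone within 500 bp of each other numbered 80, with 161 regions and at most 3 in a run. By chromosome, the isolated share of PRO-seq 1M peaks ran from 2.54% (1.23 to 5.14) on chromosome 21 to 7.44% (5.16 to 10.6) on chromosome 18, and was 7.32% (6.02 to 8.87) on chromosome 17. The adjacent share ran from 2.48% (1.797 to 3.42) on chromosome 6 to 6.50% (5.103 to 8.24) on chromosome 9.

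Among 19864 protein-coding genes, 443 had an isolated region near a start (2.23%) and 648 an adjacent region (3.26%). For 296 genes, isolated regions were the only start peaks in any list, and with adjacent regions counted too there were 321 such genes. With each list at its 15562 highest-scored peaks, the first of these numbers was 550. A start peak in qPRO-seq 1M and in neither other list was found for 590 genes. Of the 443 genes, 129 (29.1%, 25.1 to 33.5) also had a shared PRO-seq 1M start peak. The 139 pairs of an isolated region and its nearest shared start peak in the same gene had a median spacing of 4000 bp (2730 to 7260). Of the 648 genes with an adjacent region, 573 (88.4%, 85.7 to 90.7) also had a shared start peak. The rule favours this, as adjacent regions were chosen for a peak of another list close by.

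The 10 highest-scored isolated regions at protein-coding starts showed both situations. PACS1, a sorting protein of the trans-Golgi network, led with a score of 0.883 at chromosome 11, 66070031 to 66070530, a peak that also covered a start of the antisense gene AP006287.2, and other lists came no closer than 17470 bp. PKIG, an inhibitor of protein kinase A, had a peak at chromosome 20, 44531661 to 44532240, with a score of 0.867 and a distance of 9180 bp. The peak of ARRB2, an arrestin that shuts off and redirects signals of G-protein-coupled receptors, lay at chromosome 17, 4710341 to 4710750, scored 0.831 and was 1540 bp from a qPRO-seq 1M peak. For these 3 genes the region was the only start peak in any list.

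GPRIN1, a gene named for neurite outgrowth, was also found through its isolated region alone, at chromosome 5, 176610021 to 176610300, with a score of 0.790 and a distance of 36700 bp. The same held for the potassium channel subunits KCNE3 (score 0.778, distance 6320 bp) and KCNG1 (0.742, 10380 bp), the lipid transfer protein gene OSBPL5 (0.757, 3750 bp) and DTNB (0.750, 203340 bp), which encodes a dystrobrevin. The remaining pair included genes with other start peaks. LTBP4, which encodes a binding protein of latent TGF-beta, had its isolated region at an internal start (chromosome 19, 40609911 to 40610260, score 0.798), beside 5 start peaks in all in PRO-seq 1M and 5 in qPRO-seq 1M. The region between the opposite genes CDC25B, a phosphatase that activates mitotic kinases, and CENPB, a centromere protein, scored 0.787 at chromosome 20, 3786591 to 3786980. CDC25B had 3 start peaks in PRO-seq 1M, 3 in qPRO-seq 1M and 1 in qPRO-seq 250k, whereas the isolated region was the only start peak of CENPB in any list.

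Isolated regions away from starts scored up to 0.792. The highest lay in an intron of E2F2, a transcription factor of the cell cycle (chromosome 1, 23528161 to 23528690), 2530 bp from an annotated start and 1640 bp from the nearest qPRO-seq 1M peak. Those in introns of TEN1, part of the telomeric CST complex, LINC01956 and EP400, a chromatin remodelling ATPase, scored 0.725, 0.683 and 0.675. The 4 highest between genes lay on chromosome 10 (32139371 to 32139670, score 0.754), chromosome 1 (151473251 to 151473580, 0.733), chromosome 21 (38787511 to 38787850, 0.723) and chromosome 17 (22383841 to 22384130, 0.710). The third of these was 17457 bp from an ETS2 start, and all 4 were at least 8350 bp from any peak of another list. Exonic regions were led by C3, the central complement protein (0.699), and CCDC194 (0.675). At starts of non-coding genes only, the highest were AL358074.1 (0.605), LINC02074 (0.528) and a region shared by UBE2Q2P12 and AC048382.4 (0.525). UBE2Q2P12 is a pseudogene with related copies, so the placement of reads there is uncertain.

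The highest adjacent regions were of several kinds. At E2F8, an E2F family member that represses transcription (chromosome 11, 19241431 to 19242070, score 0.875), peaks of both other lists lay 20 bp away. At LINGO1, a membrane protein of neurons (chromosome 15, 77632701 to 77633140, 0.840), a qPRO-seq 1M peak was 200 bp away and a qPRO-seq 250k peak 400 bp away. At GPR85, an orphan receptor gene (chromosome 7, 113086281 to 113086700, 0.800), a qPRO-seq 1M peak lay 310 bp away and the nearest qPRO-seq 250k peak 31620 bp away. The region in an intron of BICRAL, a subunit of a BAF chromatin remodelling complex (chromosome 6, 42782831 to 42783240, 0.781), touched a qPRO-seq 1M peak.

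Counts in the gene lists examined are read against the 2.23% of all genes with an isolated and the 3.26% with an adjacent start region. Any PRO-seq 1M start peak was found for 10503 of all 19864 genes (52.9%). It was found for 75 of 82 cytosolic ribosomal protein, 352 of 514 ZNF and 7 of 39 HOX genes. The shares were not adjusted for this. Of 14 erythroid regulators, none had an isolated region and 1 had an adjacent region, RUNX1 (score 0.313). Of 9 haem synthesis enzymes, FECH, which inserts iron into the porphyrin ring, had an isolated region at its start (chromosome 18, 57586631 to 57586860, score 0.421), 2690 bp from any peak of another list, and no start peak in either qPRO-seq list. Among 31 cell cycle and E2F genes, CCND3 had an isolated region (0.616) beside a shared start peak, and CDT1, E2F5 and E2F8 had adjacent ones. None of 14 immediate-early genes and none of 48 complex I genes had either kind.

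Among 82 cytosolic ribosomal protein genes, RPS15 had an isolated region (0.498, 30300 bp from another list) and no start peak elsewhere, and 3 others (RPL26L1, RPL38 and RPS4X) had adjacent regions. Among 78 mitochondrial ribosomal protein genes, MRPS24 had an isolated region (0.438, 34500 bp away) and 3 had adjacent regions. Of 31 RNA polymerase subunit genes, POLR3F, a subunit of RNA polymerase III, had an isolated region (0.605, 39770 bp away) and was without a qPRO-seq start peak. Of 39 HOX genes, HOXC10 (0.566) and HOXD8 (0.363) had isolated regions. Of 79 heat shock and DNAJ genes, 3 had isolated and 2 adjacent regions. The 514 ZNF zinc-finger genes had 22 with an isolated (4.28%) and 14 with an adjacent (2.72%) region. ZNF227 (0.630) and ZNF136 (0.494) were among them, the latter 22090 bp from any peak of another list. For 16 of the 22, isolated regions were the only start peaks in any list. The 1 isolated region among 71 histone genes lay at HIST2H3PS2, which has near-identical copies, so its placement is uncertain.

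Promoters of isolated regions were rich in GC. GC content was measured on 34789 distinct RefSeq promoter windows, of which 326 overlapped an isolated region and no adjacent or shared PRO-seq 1M peak. The median was 70.7% (69.7 to 71.7) for these windows, 72.3% (70 to 74.0) for 129 with an adjacent region and 66.7% (66.3 to 67.0) for 11395 with a shared peak. It was 59.0% (58.0 to 60.3) for 638 windows with an isolated peak of qPRO-seq 1M alone, 64.0% (58.0 to 67.3) for 21 with an isolated peak of qPRO-seq 250k alone, 51.7% for windows with no peak and 58.7% for all windows. Isolated PRO-seq 1M windows exceeded shared ones by 4.0 percentage points (2.95 to 5.05) and those of qPRO-seq 1M alone by 11.7 points (10.0 to 13.1). Within score deciles the first of these differences averaged 5.83 points, and in the lowest decile the medians were 69.7% (66.3 to 71.3) and 63.0% (61.0 to 64.3).

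The CpG ratio differed less between PRO-seq 1M classes than from qPRO-seq 1M alone. The observed over expected ratio of CpG was 0.827 (0.802 to 0.846) in isolated, 0.843 (0.791 to 0.877) in adjacent and 0.868 (0.863 to 0.872) in shared windows. It was 0.651 (0.615 to 0.685) in windows of qPRO-seq 1M alone and 0.300 in windows without a peak.

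The same pattern held across GC classes. Of promoter windows with a peak in only 1 of both 1M lists, PRO-seq 1M held 12 of 170 (7.06%, 4.08 to 11.9) where GC was under 45%. Its part was 81 of 264 (30.7%, 25.4 to 36.5) at 60 to 65% GC, 131 of 239 (54.8%, 48.5 to 61.0) at 70 to 75%, and 66 of 78 (84.6%, 75.01 to 91.0) at 80% and over. Between neighbouring classes several intervals overlapped. With each list at its 15562 highest-scored peaks, the PRO-seq 1M part was 35.4% (28.4 to 43.1) under 50% GC and 91.5% (88.8 to 93.6) at 75% and over, against 7.33% and 71.4% for the full lists. The share of all windows with a peak shows both lists. From 70 to 75% GC to 80% and over, it went from 62.4% (60.9 to 64.0) to 59.6% (56.4 to 62.7) in PRO-seq 1M, from 61.8% (60.2 to 63.4) to 53.7% (50.5 to 56.9) in qPRO-seq 1M and from 50.3% to 37.1% in qPRO-seq 250k. Under 45% GC it was 2.92%, 4.95% and 2.13%. Low score and high GC went together with isolation. Among windows whose PRO-seq 1M peak was in the lowest 2 score deciles, 32.0% (26.3 to 38.4) were isolated at 70% GC and over, 20.2% (15.8 to 25.6) at 60 to 70% and 10.7% (7.27 to 15.6) under 60%. The part of protocol, library or depth in this pattern was not tested, as each group had 1 list.

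**Figure D5:**
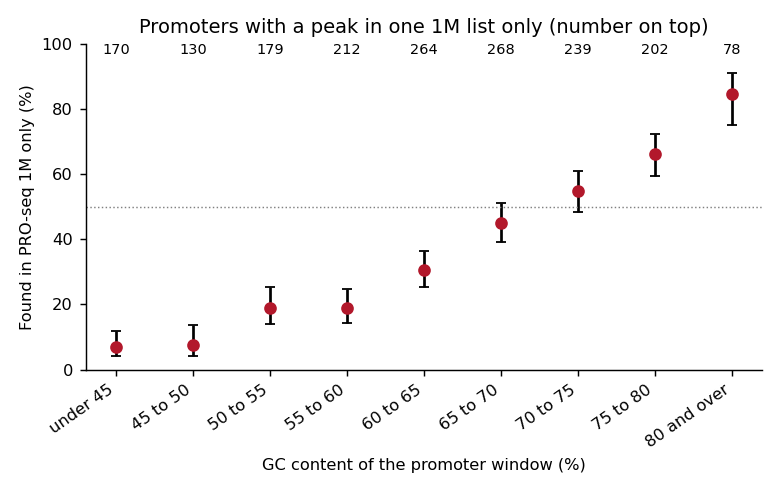
Promoter windows with a peak in only 1 of both 1M lists, by GC content (horizontal axis, percent), with the share found in PRO-seq 1M (vertical axis, percent, error bars are Wilson 95% intervals, numbers of windows on top, dotted line at 50%). The share goes from 7.06% of 170 windows under 45% GC to 84.6% of 78 windows at 80% and over.

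Short motifs were counted in the same windows on both strands, as descriptions of sequence only. The GC box GGGCGG, marked in the sequences above, was in 79.4% (74.7 to 83.5) of isolated, 75.6% (74.8 to 76.4) of shared, 51.9% (48.0 to 55.7) of qPRO-seq 1M alone and 44.9% of all windows. It was in 79.8% (72.1 to 85.9) of the 129 adjacent windows. The CCAAT box (CCAAT), where NF-Y binds, was in 21.8% (17.6 to 26.6) of isolated windows, 36.6% (35.7 to 37.5) of shared windows, 36.7% (33.0 to 40.5) of those of qPRO-seq 1M alone and 34.6% of all. In adjacent windows it was 26.4% (19.5 to 34.6), so a low share was not particular to isolated windows. The core CCGGAA of ETS factors was in 23.6% (19.3 to 28.5) of isolated and 33.5% (32.6 to 34.3) of shared windows. It was in 18.6% (12.8 to 26.2) of adjacent windows, 18.97% (16.1 to 22.2) of those of qPRO-seq 1M alone and 17.2% of all. A share below that of shared windows was thus not particular to isolated windows. Both motifs were rarer among shared windows of higher GC. At 60 to 70% GC, CCAAT was in 22.9% (16.0 to 31.7) of isolated and 39.2% (37.8 to 40.6) of shared windows, and at 70 to 80% GC in 22.1% (15.9 to 29.7) and 26.8% (25.4 to 28.3). CCGGAA was in 30.3% (22.4 to 39.5) and 38.5% (37.1 to 39.9) at 60 to 70% GC, and in 18.4% (12.8 to 25.7) and 29.02% (27.6 to 30.5) at 70 to 80%. The TATA box TATAAA was in 3.37% (1.89 to 5.94) of isolated, 4.26% (3.90 to 4.64) of shared, 10.0% (7.93 to 12.6) of qPRO-seq 1M alone and 11.6% of all windows. The GATA motif AGATAA was in 4.29% (2.58 to 7.08), 4.19% (3.84 to 4.58), 11.4% (9.20 to 14.1) and 10.4% of the same windows. Of the other motifs counted, the E-box CACGTG was in 6.44% (4.25 to 9.65) of isolated and 10.5% (9.98 to 11.1) of shared windows. The motifs TGACTCA, TGACGTCA, GCATGCGC, AAGATGGC and AATAAA were also in a smaller share of isolated than of shared windows, with overlapping intervals.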

How the data were processed

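The 6 libraries formed 3 groups of 2 replicates, taken from the sample titles, with 1 dREG peak list per group that the labels name for both replicates. How replicates were pooled, and the version and settings of dREG, are not given in the sources used here. The submitters' processing notes name fastp 0.20.0, UMI-tools, Bowtie2 2.3.5.1, deepTools 3.1.3 and builds hg38 and GRCh38, with no order. The score of each peak is as deposited by the authors, has no fixed unit and ranked peaks of the same list only. A p-value per peak, also deposited by the authors, reaches 0.0499909 in the PRO-seq 1M list and carries no statement on adjustment. The remaining columns hold start, end and centre on a grid of 10 bp, and starts are printed counted from 1.

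Regions, classes, places (GENCODE release 29, window of 500 bp around starts, then any exon, then any gene) and shares were computed with Python 3.11.15, numpy 2.4.6, pandas 2.3.3 and scipy 1.17.1, and figures with matplotlib 3.10.9. Classification was tested on simulated lists. Shares have Wilson, differences of shares Newcombe and medians exact binomial 95% intervals. No genome sequence was used here, so GC content, CpG and motifs were measured on RefSeq promoter windows (34961, of which 34789 were distinct) in place of the peaks themselves. Windows overlapped 284 isolated, 156 adjacent and 8992 shared peaks. Regions and gene lists were chosen with earlier results of these data known. Named regions are the highest-scored of each place (10 isolated at protein-coding starts, 4 intronic, 4 intergenic, 2 exonic, 3 at non-coding starts), the 4 highest adjacent ones, 2 on each side of the 500 bp limit, and those of the gene lists. Alternatives were other limits on p, list sizes, overlap rules, distances, start windows and promoter sets. No sequence from chromosome 8 was printed.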

Additional observations from a re-analysis of the deposited data

Results flagged for a closer look

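Outside chromosomes 1 to 22 and X, which the counts above leave out, 19 of 75 PRO-seq 1M peaks had no overlapping peak of another list. Of these, 16 were isolated and 3 adjacent, 11 lay on alternate scaffolds and 0 on the mitochondrial genome. This share of 25.3% (16.9 to 36.2) stood beside 8.53% on the chromosomes used, and these peaks are given here because no comparison above includes them. What these peaks are was not tested.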

How the results depend on the processing

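Of 104 alternative values for 11 results, 79 lay inside the 95% interval of the reported value (for numbers, within a factor of 1.5), 25 lay outside it and no difference whose interval excluded 0 changed sign; unless construction shows it, the cause was not tested. Overlap of at least 50% of both peaks, stricter by construction, gave 4353 regions of PRO-seq 1M alone in place of 2108, and joining touching peaks, an alternative chosen after seeing the data, gave 2047. The start-near share of isolated regions (42.3%) became 47.6% with p at or below 0.01, 58.7% with each list at its 15562 highest-scored peaks, 48.5% with isolation over 100 bp, 47.9% with a start window of 1000 bp and 37.5% with protein-coding starts alone. That of adjacent regions (69.0%) became 72.5%, 80.2%, 77.0%, 81.1% and 64.4% under the same settings, 60.2% with peaks joined up to 100 bp apart and 65.6% with isolation over 1000 bp. Isolated minus shared was -19.4 points at equal list sizes, -20.9 with isolation over 100 bp and -12.2 within score deciles. Adjacent minus shared (-0.34, interval including 0) was 14.8 within score deciles, -9.34 with peaks joined up to 100 bp apart, -3.81 with isolation over 1000 bp, 7.67 with isolation over 100 bp and 6.33 with the wider start window, so its sign is not settled. The GC difference between isolated and shared windows was 5.83 points within score deciles. Genes found through isolated regions alone numbered 550 at equal list sizes, against 296.

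The division of promoters between both 1M lists was examined after seeing the data, as were 1 window per peak, protein-coding promoters alone, the GC difference from qPRO-seq 1M alone and the settings tried on adjacent minus shared. PRO-seq 1M held 7.33% of windows found in only 1 of both lists under 50% GC and 71.4% at 75% and over; at equal list sizes these were 35.4% and 91.5%. No paired analysis was possible because each group had 1 list for its 2 replicates, and leaving out a replicate was not possible for the same reason. GC content in 300 bp around peak centres was not run, as no genome sequence was used here. Depth is unknown, so neither the length of a list nor a missing peak can be set against it.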
